A study of Mus musculus with 30 samples.

Results

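A set of 9 genes of the G1 phase of the cell cycle was followed through 30 mouse melanoma tumours: the D-type cyclins Ccnd1, Ccnd2 and Ccnd3, their kinases Cdk4 and Cdk6, the inhibitors Cdkn1b, Cdkn1c and Cdkn2c, and Rb1. They were taken as a list of names from the 54532 features in the count files, and all 9 were found there. Of these 9 genes, 8 were among the 13286 genes with enough counts to be tested, and Cdkn1c was not. The tumours were grown under the skin from 5 clones of YUMM1.7, named 2646TN, 2646R, 14559TN, 14559R and 13TN, each left untreated or given RAFi/MEKi, the labels' name for inhibitors of the RAF and MEK kinases. YUMM1.7 is a Braf-mutant mouse melanoma line that lacks Cdkn2a, and all 10 groups share that background. The strain in the labels is C57BL/6, and age, compounds, dose and days of treatment are not given in the sources used here. Each group held 3 tumours, every group stands for a single clone, and the labels use the letters TN and R without spelling them out. The labels of 13TN carry the word Depleted, also without explanation. Tumours were dissociated, stained for viability and for CD45, a marker of immune cells, and the injected cells were recognised by their GFP before RNA was taken.

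Cyclin D binds and activates CDK4 or CDK6, and the active kinase phosphorylates the retinoblastoma protein, the product of Rb1. Phosphorylated retinoblastoma protein releases E2F transcription factors, which switch on genes for DNA synthesis. Growth factor signalling through RAF, MEK and ERK is known to raise cyclin D1, which is why D-type cyclins are read as an output of that pathway in melanoma. The INK4 inhibitor p18, from Cdkn2c, binds CDK4 and CDK6 directly, whereas p27 and p57, from Cdkn1b and Cdkn1c, bind whole cyclin-kinase complexes.

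On GRCm38 the cyclin genes lie, with their strand, as Ccnd1 at chr7:144929931-144939925 (minus), Ccnd2 at chr6:127125162-127152193 (minus) and Ccnd3 at chr17:47505051-47599691 (plus). The kinase genes are Cdk4 at chr10:127063534-127067920 (plus) and Cdk6 at chr5:3341485-3531008 (plus), and Rb1 at chr14:73183673-73325822 (minus) is their substrate gene. The inhibitor genes are Cdkn2c at chr4:109660876-109667189 (minus), Cdkn1b at chr6:134920401-134925513 (plus) and Cdkn1c at chr7:143458339-143461050 (minus). Counts cover all annotated exons of a gene, untranslated ends included.

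Libraries held 3022801 to 5278453 counts. All levels below are CPM, that is counts scaled to a library of fixed size, after scaling of the libraries, counted near the 3′ ends of transcripts, and are compared between groups for 1 gene at a time, never between genes. A gene is called, and said to rise or fall, at an adjusted p under 0.05 in edgeR over all 13286 tested genes. Log2 fold changes are followed by their standard error. The pigment cell markers Tyr and Dct were at 0 in all 30 libraries and Mlana in 29, while Mitf, the lineage factor, was present in all (12.0 to 81.3 CPM). Of the other melanoma markers, Sox10 was at 0 in 10 libraries and reached 51.8 CPM at its highest. Erbb3 was at 0 in 16 libraries (at most 4.64 CPM), Pmel in 3 (at most 1.81 CPM) and S100b in 2 (at most 11.7 CPM). Lymphocyte markers, which matter because lymphocytes use Ccnd2 and Ccnd3, summed to at most 2.52 CPM in any library, with Cd79a and Ms4a1 at 0 throughout. On the first principal component (39.0% of variance, from 1000 genes), treated 14559R replicate 3 (43.9) lay within the untreated 14559R range (34.1 to 46.2), and treated replicates 1 and 2 lay below it (22.8 and 28.5). Bulk values cannot tell fewer cells of a type from less RNA per cell.

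RAFi/MEKi lowered Ccnd1 and Cdk4 and raised Ccnd3, Cdkn2c and Cdkn1b in 14559TN and in 13TN. In 2646R it raised Ccnd3 and Cdkn2c and lowered Ccnd2, in 2646TN it raised Cdk6, and in 14559R none of the genes was called. In counts, 5 of the 8 tested genes were called in 14559TN, where 28.4% of all tested genes were called, and 5 of 8 in 13TN, against 31.0% of all. In 2646R 3 of 8 were called (19.9% of all), in 2646TN 1 of 8 (3.94%) and in 14559R 0 of 8 (0.196%). In 14559R 1 gene, Ccnd2, passed 0.05 before adjustment, and it was a call with DESeq2. Without treated 14559R replicate 3, edgeR still called 0 of the 8 and called 84 of all genes, against 26 with it. The median log2 fold change of the 8 genes was 0.28 in 14559TN and -0.25 in 13TN, beside 0.00 for all genes in both. A median near 0 here goes with large moves in opposite directions, which it does not show. The responses differed among the 5 clones for 7 of the 8 genes, all but Rb1, in 1 test of the 4 differences between responses, against 28.8% of all genes.

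**Figure D1:**
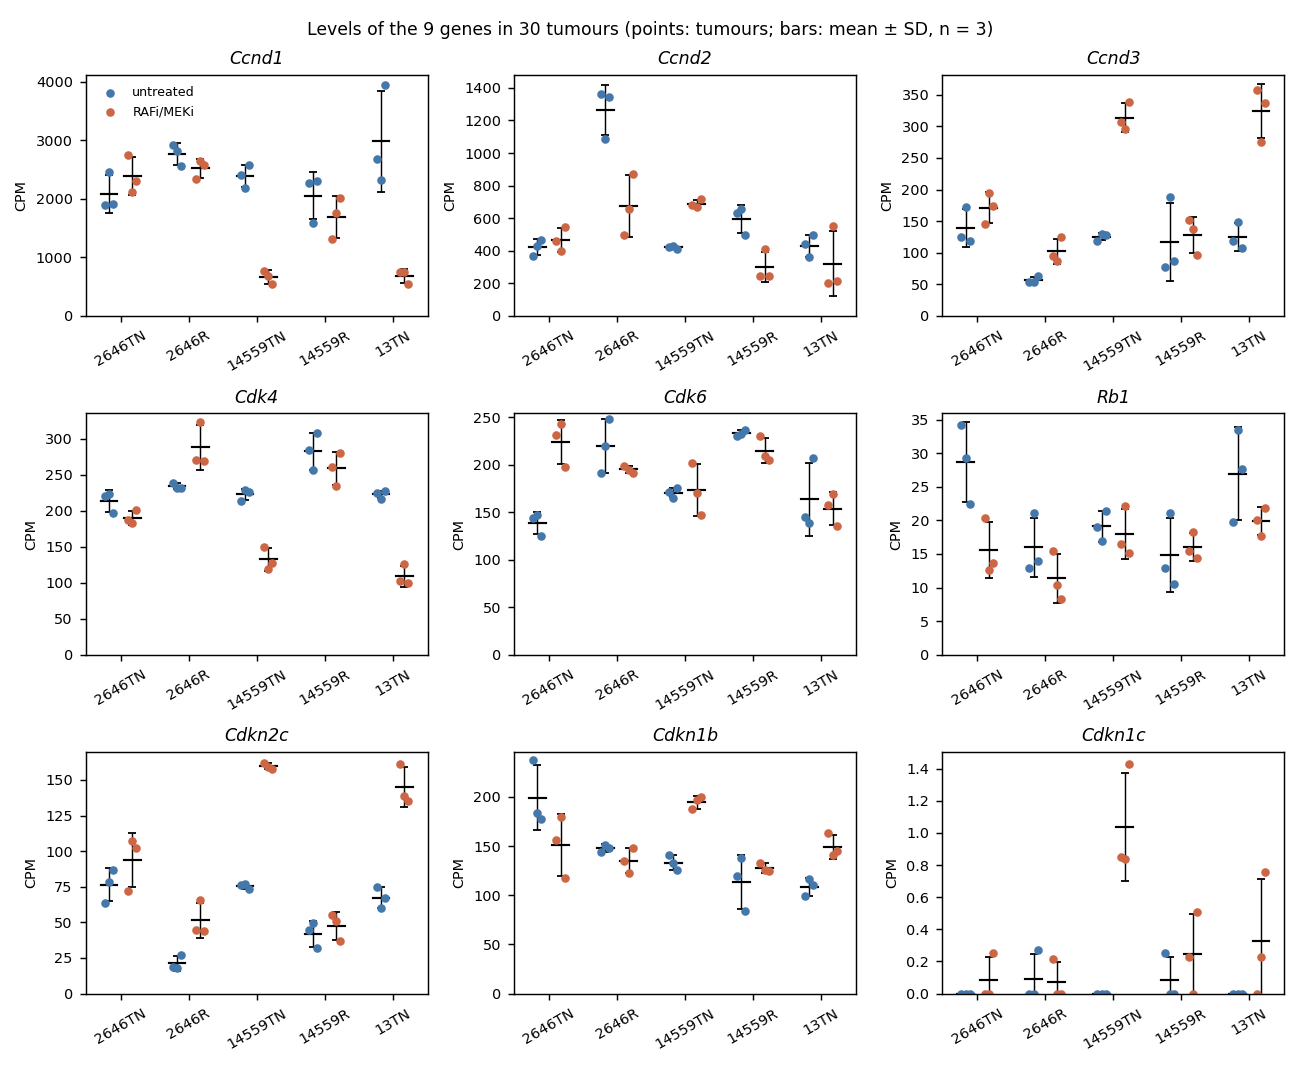
Level of each of the 9 genes in CPM (vertical axes start at 0) by clone, untreated in blue and RAFi/MEKi in orange, with points for tumours and bars for the mean ± SD of 3. Treated 14559TN and 13TN stand lowest for Ccnd1 and Cdk4 and highest for Ccnd3 and Cdkn2c.

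Ccnd1 encodes cyclin D1, the D-type cyclin most closely tied to ERK signalling. In 14559TN it read 2407, 2194 and 2579 CPM untreated and 768, 678 and 542 CPM treated. In 13TN it read 2674, 2325 and 3956 CPM untreated and 743, 754 and 539 CPM treated. The groups did not overlap in either clone (47.5% of all genes did not in 14559TN and 45.9% in 13TN). All 6 of these treated tumours lay below every other library of the series, the lowest of which stood at 1306 CPM. The fall was -1.85 ± 0.19 in 14559TN (edgeR adjusted p = 7.82e-09) and -2.14 ± 0.19 in 13TN (adjusted p = 2.62e-10).

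In the other 3 clones the treated and untreated values of Ccnd1 overlapped. It read 1894, 2454 and 1905 CPM untreated and 2748, 2110 and 2312 CPM treated in 2646TN, at 0.20 with a 95% interval of -0.17 to 0.57. In 2646R it read 2923, 2826 and 2567 CPM untreated and 2342, 2651 and 2585 CPM treated. In 14559R it read 2269, 1593 and 2307 CPM untreated and 1306, 1763 and 2015 CPM treated, at -0.28 with a 95% interval of -0.65 to 0.09. The edgeR adjusted p was 0.682, 0.646 and 0.626 in that order. These intervals leave out a fall of the size seen in 14559TN. Ranked by their means, the 10 groups formed a run of 8 in which each overlapped its neighbour, from untreated 13TN (2985 ± 859 CPM, SD, n = 3) to treated 14559R (1695 ± 360 CPM). A gap then set apart treated 13TN (679 ± 121 CPM) and treated 14559TN (662 ± 114 CPM), which overlapped each other.

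Ccnd3, which encodes cyclin D3, moved the other way in the clones where Ccnd1 fell. In 14559TN it read 119, 129 and 128 CPM untreated and 307, 295 and 339 CPM treated. In 13TN it read 119, 149 and 107 CPM untreated and 358, 276 and 337 CPM treated. The 6 treated values were the highest of all 30 libraries, and the next library stood at 194 CPM. Ccnd3 rose by 1.32 ± 0.24 in 14559TN (edgeR adjusted p = 1.12e-04) and by 1.37 ± 0.24 in 13TN (adjusted p = 6.36e-05).

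In 2646R Ccnd3 started from the lowest level of any group, 53.8, 54.2 and 62.6 CPM, and stood at 94.6, 87.1 and 125 CPM with treatment. This rise of 0.85 ± 0.24 had an edgeR adjusted p of 0.0142. It was not called without untreated 2646R replicate 1 (adjusted p = 0.0519) or treated replicate 3 (0.0730). In 2646TN Ccnd3 went from 125, 173 and 118 CPM to 145, 194 and 175 CPM (0.31 ± 0.23, edgeR adjusted p = 0.594), with overlapping groups. In 14559R it went from 76.5, 189 and 86.2 CPM to 152, 137 and 96.5 CPM (0.13 ± 0.23, adjusted p = 0.900). Untreated 14559R replicate 2 was the high library there, and without it the difference was 0.65 (adjusted p = 0.121). Leaving out the other 14559R libraries gave -0.11 to 0.30, so the sign of this value rested on single libraries.

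Ccnd2, which encodes cyclin D2, stood out in 1 group. Untreated 2646R read 1362, 1088 and 1343 CPM, above every other library, of which the highest stood at 872 CPM. With treatment 2646R read 496, 654 and 872 CPM, a fall of -0.91 ± 0.28 (edgeR adjusted p = 0.0253). That call was lost without untreated 2646R replicate 1 (adjusted p = 0.104) or 3 (0.0852) and without treated replicate 1 (0.154) or 2 (0.101).

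In 14559R Ccnd2 was 632, 657 and 495 CPM untreated and 246, 408 and 243 CPM treated. These groups did not overlap, as for 14.4% of all genes in that clone, but the difference of -0.99 ± 0.28 was not called (edgeR adjusted p = 0.172). DESeq2 called it (adjusted p = 0.0262), as did edgeR without the low-count filter (9.80e-09). In 14559TN it was 420, 431 and 413 CPM untreated and 679, 665 and 716 CPM treated (0.71 ± 0.28, edgeR adjusted p = 0.0662). These groups too did not overlap (47.5% of all genes in that clone did not). DESeq2 (adjusted p = 0.0177), edgeR without the filter (1.45e-05) and a fit of only these groups (8.88e-06) called the difference. In 13TN the treated tumours were unlike each other, at 198, 551 and 211 CPM, against 438, 358 and 493 CPM untreated (-0.42 ± 0.28, edgeR adjusted p = 0.274). Without treated 13TN replicate 2, the high library, the difference was -1.04 (adjusted p = 5.09e-04), and with low-count genes kept it was -0.39 (0.0499). In 2646TN it was 368, 429 and 467 CPM untreated and 460, 397 and 543 CPM treated (0.15 ± 0.28, adjusted p = 0.876).

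**Figure D2:**
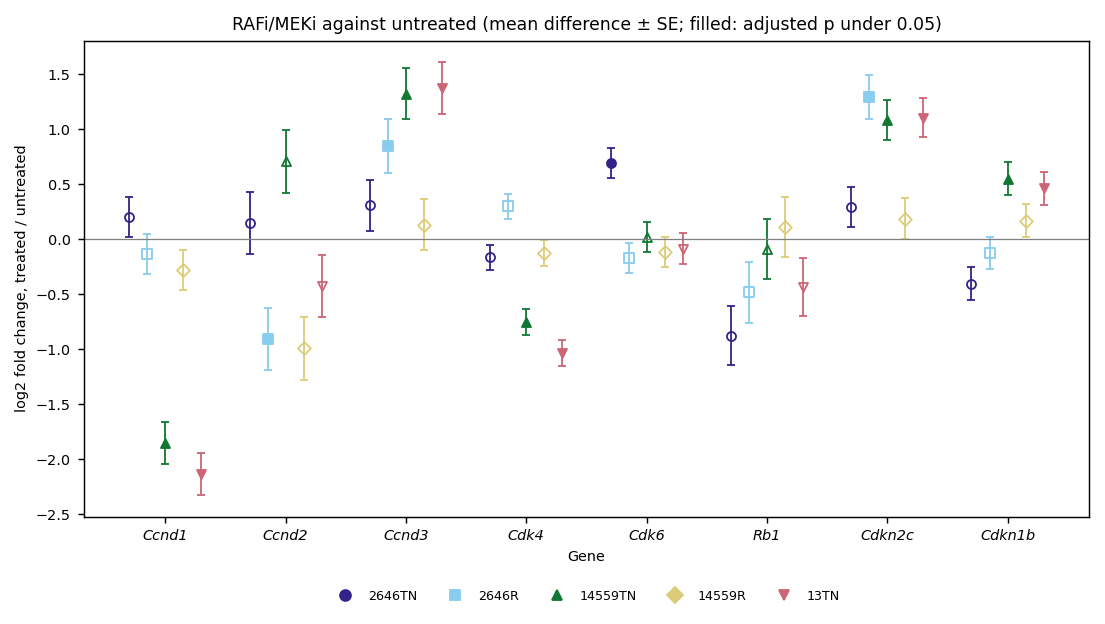
Log2 fold change of treated over untreated tumours for the 8 tested genes in the 5 clones, with SE as bars, filled where edgeR's adjusted p was under 0.05. Ccnd1 reached -1.85 in 14559TN and -2.14 in 13TN, while Ccnd3 and Cdkn2c lay above 0 in all 5 clones and were filled in 3.

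Cdk4 encodes the kinase partner of cyclin D in most cell types. In 14559TN it read 213, 229 and 226 CPM untreated and 149.9, 119 and 127 CPM treated. In 13TN it read 224, 217 and 227 CPM untreated and 102, 125 and 99.2 CPM treated. These 6 treated tumours were the lowest of the 30 libraries, and the next stood at 183 CPM. Cdk4 fell by 0.75 ± 0.12 on the log2 scale in 14559TN (edgeR adjusted p = 9.28e-06) and by 1.03 ± 0.12 in 13TN (adjusted p = 3.66e-08), a smaller step than that of Ccnd1 in each clone. In 2646TN it read 221, 223 and 196 CPM untreated and 186, 183 and 201 CPM treated (-0.17 ± 0.12, adjusted p = 0.537). In 14559R it read 284, 256 and 307 CPM untreated and 261, 235 and 280.3 CPM treated (-0.13 ± 0.12, adjusted p = 0.767). Both pairs of groups overlapped. In 2646R the order was the reverse, with 238, 232 and 231 CPM untreated and 270.0, 324 and 269 CPM treated. These groups did not overlap, as for 34.4% of all genes in that clone, and the difference of 0.30 ± 0.12 was not called (edgeR adjusted p = 0.0634). It was called with median-of-ratios scaling (adjusted p = 0.0381) and by DESeq2 (0.0191).

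The promoter of Cdk4 is shown because its sequence repeats a single motif. The 250 bases before the start of Cdk4 in RefSeq (GRCm38.p6, chr10:127063285-127063534, plus strand, its last base the first of the gene in GENCODE) hold the E-box letters CACGTG, a palindrome known as the core site of MYC and related factors, at 4 places. Their first bases lie 172, 118, 98 and 11 bases before the start. Of 32851 windows of this length 6.02% held the letters at all and 0.0213%, 7 windows, held them 4 times or more. Capitals mark these 4 sites and, each found once, the GC box GGGCGG (on the other strand, 32.7% of windows) and the TCF/LEF letters CTTTGAT (other strand, 3.21%), with no overlap between them.
Cdk4 promoter: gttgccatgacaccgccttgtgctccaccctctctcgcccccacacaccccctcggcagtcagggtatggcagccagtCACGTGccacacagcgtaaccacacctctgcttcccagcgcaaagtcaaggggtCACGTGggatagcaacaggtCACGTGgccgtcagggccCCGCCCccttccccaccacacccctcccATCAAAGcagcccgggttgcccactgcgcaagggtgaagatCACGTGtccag
These matches describe letters in the window and are no measure of binding.

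Cdk6 encodes the second cyclin D kinase, and its response was called in 2646TN. There it read 144, 147 and 125 CPM untreated and 231, 242 and 197 CPM treated, without overlap (20.3% of all genes in that clone). The rise was 0.69 ± 0.14 (edgeR adjusted p = 0.00221). Its 95% interval was -0.26 to 0.30 for 14559TN, -0.37 to 0.19 for 13TN, -0.45 to 0.11 for 2646R and -0.40 to 0.16 for 14559R. So Cdk6 was not called where Cdk4 fell. In 14559R its untreated (231, 233 and 237 CPM) and treated values (230.2, 209.5 and 205 CPM) did not overlap (14.4% of all genes in that clone did not). The difference was not called (edgeR adjusted p = 0.820). Macrophage markers moved in the same 2646TN tumours: their 8 genes, none of them at 0 in either group, summed to 137 to 226 CPM untreated and 26.0 to 58.8 CPM treated. Endothelial markers summed to 17.3 to 22.4 CPM untreated and 7.06 to 7.32 CPM treated, with 1 of 6 genes at 0 in the treated group. The 6 pericyte and smooth muscle markers, none at 0, summed to 93.9 to 104 CPM untreated and 278 to 777 CPM treated. For a group, at 0 means here and below no count in any of its 3 libraries. Of these 6, Myh11 was at 0 in 20 of all 30 libraries and Des in 16, while Acta2 reached 920 CPM. The part of these marker shifts in the 2646TN values was not tested.

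Rb1 had no called response in any clone. Its highest level was in untreated 2646TN, at 34.3, 29.3 and 22.5 CPM, against 20.3, 12.7 and 13.6 CPM treated. The groups did not overlap (20.3% of all genes in that clone did not), and the difference of -0.88 ± 0.27 missed the threshold (edgeR adjusted p = 0.0575). DESeq2 (adjusted p = 0.0360), edgeR without the low-count filter (0.0299) and edgeR without treated 2646TN replicate 1 (0.0406) called it. In 13TN it was 19.7, 33.5 and 27.7 CPM untreated and 20.1, 17.7 and 21.9 CPM treated (-0.44 ± 0.26), and in 2646R 13.0, 21.1 and 13.9 CPM and 15.4, 10.3 and 8.35 CPM (-0.48 ± 0.28). Both pairs overlapped. In 14559TN and 14559R the differences were -0.09 ± 0.27 and 0.11 ± 0.27. No library held over 136 counts of Rb1, and its coefficient of variation within a group, with a median of 23.2%, was the widest of the 8 tested genes.

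Cdkn2c, which encodes p18, was the gene whose level varied most between groups, 7.57-fold from the lowest to the highest mean. In 14559TN it read 76.1, 76.8 and 73.1 CPM untreated and 162, 159 and 158 CPM treated. In 13TN it read 75.0, 59.8 and 67.4 CPM untreated and 161, 139 and 135 CPM treated. In 2646R it read 18.5, 17.8 and 27.04 CPM untreated and 44.7, 65.4 and 44.0 CPM treated. None of these pairs overlapped (47.5% of all genes did not in 14559TN, 45.9% in 13TN and 34.4% in 2646R). Of the 3 treated 2646R tumours, 1 reached the lowest untreated value of the TN clones. The rise was 1.08 ± 0.18 in 14559TN (edgeR adjusted p = 2.33e-05), 1.10 ± 0.18 in 13TN (1.66e-05) and 1.29 ± 0.20 in 2646R (1.41e-05). In 2646TN it went from 63.7, 78.5 and 87.0 CPM to 72.3, 107 and 102 CPM (0.29 ± 0.18, adjusted p = 0.461). In 14559R it went from 44.4, 49.2 and 31.8 CPM to 55.1, 50.8 and 36.6 CPM (0.19 ± 0.19, adjusted p = 0.796), and both pairs overlapped.

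Cdkn1b, which encodes p27, rose in 14559TN and 13TN. In 14559TN it read 141, 132 and 126 CPM untreated and 187, 197 and 199.6 CPM treated, a rise of 0.55 ± 0.15 (edgeR adjusted p = 0.00528). In 13TN it read 98.8, 117 and 110.5 CPM untreated and 163, 141 and 145 CPM treated, a rise of 0.46 ± 0.15 (adjusted p = 0.0175). The 13TN call was lost without untreated replicate 1 (adjusted p = 0.0543) or treated replicate 1 (0.0538). In 2646TN the order was the reverse, from 238, 183 and 177 CPM to 156, 179.5 and 117 CPM, with overlap (-0.40 ± 0.15, adjusted p = 0.128). In 2646R (-0.13 ± 0.15) and 14559R (0.17 ± 0.15) the groups overlapped. p27 is largely controlled by protein turnover, which these counts do not measure.

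Cdkn1c, which encodes p57, was at or near 0. It had 23 counts in all over the 30 libraries, and 2 of the 15 untreated libraries had any. Treated 14559TN held 12 of these counts, 3, 4 and 5 per tumour, and untreated 14559TN held 0. With a floor of 3 counts put in for the untreated group, the level came out 3.78-fold higher in treated 14559TN. That value takes the 12 treated counts as exact and is no firm minimum. Keeping genes of low count in the fit did not make it a call (edgeR adjusted p = 0.100).

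The promoters of Ccnd3 and Cdkn1b are shown because both genes rose in the same pair of clones, and both windows lie wholly outside annotated exons. They are the 250 bases before the start in RefSeq, on GRCm38.p6, chr17:47504801-47505050 for Ccnd3 (the first of its 2 RefSeq starts) and chr6:134920151-134920400 for Cdkn1b, both on the plus strand. Capitals mark letters of the GC box (GGGCGG, 32.7% of the 32851 windows), the CCAAT box (CCAAT, 33.8%) and the FOXO motif (GTAAACA, 3.17%) on either strand, with no overlap between them.
Ccnd3 promoter: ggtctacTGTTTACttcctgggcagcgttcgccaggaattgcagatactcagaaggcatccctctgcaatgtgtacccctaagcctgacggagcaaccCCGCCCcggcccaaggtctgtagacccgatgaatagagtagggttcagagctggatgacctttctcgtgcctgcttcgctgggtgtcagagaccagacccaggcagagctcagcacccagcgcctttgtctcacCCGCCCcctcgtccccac
Cdkn1b promoter: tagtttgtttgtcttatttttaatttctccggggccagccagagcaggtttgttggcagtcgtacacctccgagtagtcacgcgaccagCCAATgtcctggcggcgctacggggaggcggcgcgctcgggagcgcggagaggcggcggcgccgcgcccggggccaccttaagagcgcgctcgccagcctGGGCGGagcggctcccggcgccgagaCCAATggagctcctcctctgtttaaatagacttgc
The Ccnd3 window has 1 FOXO match 243 bases before the start and 2 GC boxes on the other strand. The Cdkn1b window has 2 CCAAT boxes, 161 and 35 bases before the start, and 1 GC box. Neither window holds the E2F letters TTTGGCGC or TTTCCCGC (0.417% and 0.895% of windows), the AP-1 letters TGANTCA (6.75%), the CRE letters TGACGTCA (1.55%), the ETS letters CCGGAAGT (2.88%), CACGTG or CTTTGAT, which says only that these letters are not in these 250 bases. The window before the second Ccnd3 start (chr17:47593217-47593466), not printed, has a CCAAT box, a GC box and no FOXO match. Counts by gene do not tell which of these starts was used.

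The R and TN clones of a pair were compared next. The title of the series names clonal pairs of TN and R. Cdkn2c was lower in the R clone in both pairs, untreated and treated, and Ccnd3 was lower in 3 of these 4 comparisons. Untreated, 6 of 8 genes were called between 2646R and 2646TN (36.6% of all tested genes) and 3 of 8 between 14559R and 14559TN (24.1%). Treated, 3 of 8 were called between 2646R and 2646TN (20.1%) and 6 of 8 between 14559R and 14559TN (49.4%).

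**Figure D3:**
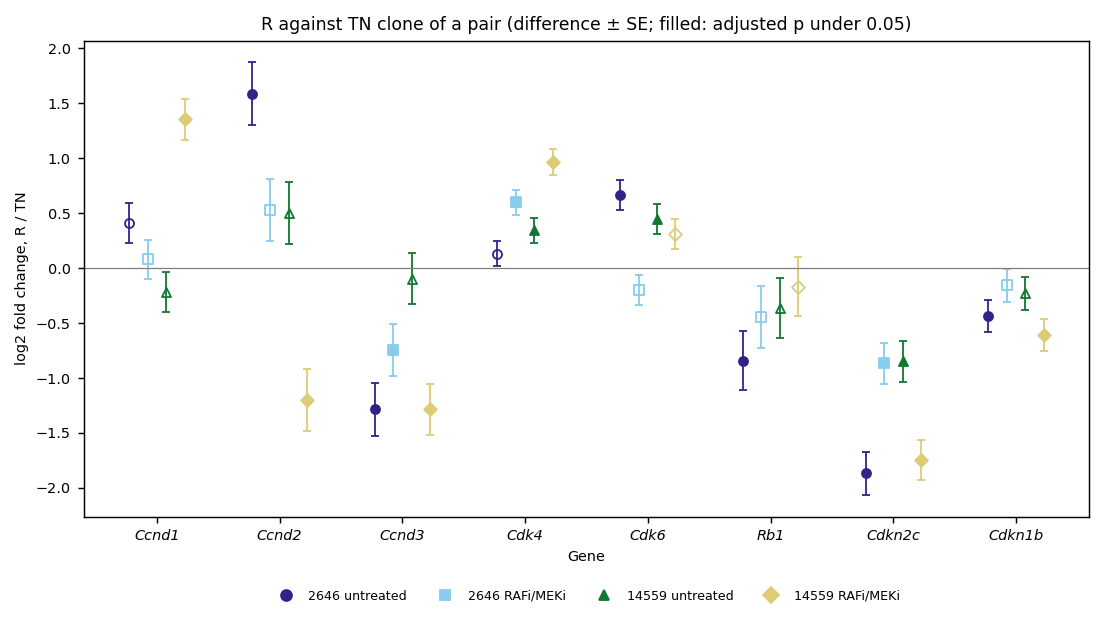
Log2 fold change of the R over the TN clone of each pair for the 8 tested genes, untreated and treated, with SE as bars, filled where edgeR's adjusted p was under 0.05. Cdkn2c is filled and below 0 in all 4 comparisons, from -1.87 to -0.85.

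In untreated tumours 2646R, against 2646TN, had higher Ccnd2 (1.59 ± 0.29, edgeR adjusted p = 1.60e-04) and Cdk6 (0.66 ± 0.14, 3.08e-04). It had lower Cdkn2c (-1.87 ± 0.20, adjusted p = 1.21e-08) and lower Ccnd3 (-1.28 ± 0.24, 1.70e-04). Thus RNA for cyclin D2 and a cyclin D kinase was higher, and RNA for cyclin D3 and the kinase inhibitor p18 lower, in the same 3 tumours. None of these 4 genes overlapped between the clones (45.3% of all genes did not). Cdkn1b (-0.43 ± 0.15, adjusted p = 0.0209) and Rb1 (-0.84 ± 0.27, 0.0130) were also lower. Both calls were lost without untreated 2646TN replicate 1 (adjusted p = 0.147 and 0.0699) or untreated 2646R replicate 1 (0.0631 and 0.0746). Ccnd1 (0.41 ± 0.18, adjusted p = 0.0734) and Cdk4 (0.13 ± 0.12, 0.390) were not called. Ccnd1 was called when low-count genes were kept (adjusted p = 0.0252), when just these groups were fitted (0.0444) and without untreated 2646TN replicate 2 (0.0418). Marker sums also separated these groups. Macrophage markers were at 25.1 to 54.1 CPM in untreated 2646R against 137 to 226 CPM in 2646TN, and endothelial markers at 4.92 to 8.25 against 17.3 to 22.4 CPM. Fibroblast markers were at 5326 to 5962 against 3188 to 5028 CPM, and pericyte and smooth muscle markers at 450.1 to 471 against 93.9 to 104 CPM, with no gene of these 4 lists at 0 in either group. Their part in these values was not tested.

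Treated, 2646R again had lower Cdkn2c (-0.87 ± 0.18, edgeR adjusted p = 8.82e-04). Cdk4 was higher in 2646R (0.60 ± 0.12, adjusted p = 3.41e-04). Ccnd3 was lower (-0.74 ± 0.24, adjusted p = 0.0260), a call lost without treated 2646TN replicate 2 (0.111) or 3 (0.0882) or treated 2646R replicate 1 (0.0908) or 2 (0.125). Ccnd2 (0.53 ± 0.28, adjusted p = 0.200) and Cdk6 (-0.20 ± 0.14, 0.329), both higher in 2646R without treatment, were not called, and their groups overlapped. Ccnd2 was called when low-count genes were kept (0.56, adjusted p = 0.00220). The test of the difference between the responses of 2646R and 2646TN called 2 of 8 genes (4.15% of all). Cdk6 responded less in 2646R by 0.86 ± 0.19 on the log2 scale (edgeR adjusted p = 0.00803) and Cdkn2c more by 1.00 ± 0.27 (0.0268). The Cdkn2c difference was not called in 5 of the fits that left out a library, namely untreated 2646TN replicate 3 (adjusted p = 0.0767), untreated 2646R replicate 1 (0.0827) or 2 (0.0613), treated 2646TN replicate 1 (0.0697) and treated 2646R replicate 2 (0.106), nor in a fit of these groups alone (0.0726). For Ccnd2 the difference of -1.06 ± 0.40 was not called (adjusted p = 0.147), but a fit of these groups alone (0.0274) and one without the low-count filter (8.06e-05) called it. For Cdk4 the difference of 0.47 ± 0.16 was not called by edgeR (adjusted p = 0.104), but was called by DESeq2 (0.0367) and without treated 2646TN replicate 3 (0.0489).

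In untreated tumours 14559R, against 14559TN, had lower Cdkn2c (-0.85 ± 0.19, edgeR adjusted p = 0.00103), higher Cdk6 (0.45 ± 0.14, 0.0149) and higher Cdk4 (0.34 ± 0.12, 0.0272). The Cdk6 call was lost without untreated 14559TN replicate 2 (adjusted p = 0.0641). The Cdk4 call was lost without untreated 14559TN replicate 1 (0.111), 2 (0.0625) or 3 (0.0714), without untreated 14559R replicate 1 (0.0761) or 3 (0.133), and without the low-count filter (0.164). Ccnd1, Ccnd2, Ccnd3, Cdkn1b and Rb1 were not called. Ccnd3 was called lower without untreated 14559R replicate 2 (-0.62, adjusted p = 0.0182), against -0.10 with it. Ccnd2 (0.50 ± 0.28, edgeR adjusted p = 0.216), whose groups did not overlap (43.0% of all genes did not), was called higher when just these groups were fitted (0.00427) or low-count genes were kept (0.00826).

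Treated, 14559R and 14559TN differed in 6 of these genes. 14559R had higher Ccnd1 (1.35 ± 0.18, edgeR adjusted p = 4.98e-07) and Cdk4 (0.97 ± 0.12, 4.78e-08). It had lower Cdkn2c (-1.75 ± 0.18, adjusted p = 3.69e-09), Ccnd3 (-1.29 ± 0.23, 6.41e-05), Ccnd2 (-1.20 ± 0.29, 0.00139) and Cdkn1b (-0.61 ± 0.15, 0.00104). None of these 6 genes overlapped between the treated clones, as for 57.5% of all genes. Cdk6 (0.31 ± 0.14, edgeR adjusted p = 0.0569) was called without treated 14559TN replicate 1 (0.0286). Of the D-type cyclin genes, Ccnd1 alone had more RNA in treated 14559R, and Ccnd2 and Ccnd3 had less. In the same treated groups Malat1, a nuclear RNA, held 0.848 to 1.16% of counts in 14559R and 1.76 to 2.40% in 14559TN, and ribosomal protein genes 2.43 to 2.93% and 1.61 to 1.71%. Macrophage markers summed to 16.7 to 32.0 CPM in 14559R and 59.7 to 111 CPM in 14559TN, and the 4 erythroid markers to 83.5 to 173 and 25.9 to 48.6 CPM, with none at 0. The part of these shifts in the differences was not tested.

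The difference between the responses of 14559R and 14559TN was called for 5 of 8 genes (12.0% of all). It was 1.57 ± 0.26 for Ccnd1 (edgeR adjusted p = 8.36e-05) and -1.70 ± 0.40 for Ccnd2 (0.00682), and neither call was lost in any alternative fit. For Cdk4 it was 0.63 ± 0.16 (adjusted p = 0.0101), for Ccnd3 -1.19 ± 0.33 (0.0179) and for Cdkn2c -0.90 ± 0.26 (0.0201). These last calls rested on single libraries: without untreated 14559R replicate 2 the adjusted p was 0.0566, 0.0808 and 0.0677, and without treated 14559R replicate 3 it was 0.0601 for Ccnd3 and 0.0787 for Cdkn2c. A fit of these groups alone did not call Ccnd3 (0.100), and Cdk4 was not called when low-count genes were kept (0.0620).

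The untreated TN clones were also compared with each other, and the counts called were not far from the shares of all genes. Between 14559TN and 13TN 0 of 8 genes were called by edgeR or DESeq2 and 0 had an unadjusted p under 0.05, against 11.2% of all genes called. Between 2646TN and 14559TN 1 of 8 was called (18.9% of all) and between 2646TN and 13TN 2 of 8 (16.2%). Cdkn1b was higher in 2646TN, by 0.58 ± 0.15 over 14559TN (edgeR adjusted p = 0.00472) and by 0.88 ± 0.15 over 13TN (7.78e-05). The call against 14559TN was lost without untreated 2646TN replicate 1 (adjusted p = 0.0724). When just these groups were fitted, Cdk6 (-0.31, adjusted p = 0.0453) and Rb1 (0.57, 0.0403) were called too. Ccnd1 was lower in 2646TN than in 13TN (-0.52 ± 0.18, adjusted p = 0.0471), with overlapping groups, and that call was lost with median-of-ratios scaling (0.0555), in a fit of these groups alone (0.0516) and without untreated 13TN replicate 3 (0.390, at -0.28) or untreated 2646TN replicate 1 (0.152) or 3 (0.151). For Ccnd2, Ccnd3 and Cdk4 the 3 clones lay within 0.15 of each other on the log2 scale.

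Other genes of the pathway were read from lists of their own, chosen with earlier results of these data known. The 20 genes in the E2F target list, which act in DNA synthesis, give the far end of the cyclin D pathway. All 20 fell in 14559TN (median -1.91; 16.0% of all genes fell) and all 20 in 13TN (median -2.47; 17.4%), with medians of 0.00 for all genes. The steepest were Uhrf1 (-3.51 ± 0.32) in 14559TN and Rrm2, a subunit of ribonucleotide reductase (-4.16 ± 0.36), in 13TN. In 2646R 12 of 20 rose and 0 fell (median 0.69; 9.70% of all genes rose), with Gins2, of the replication helicase, at 1.16 ± 0.27. In 2646TN (median 0.34) and 14559R (median -0.33) edgeR called 0 of 20, against 3.94% and 0.196% of all genes. In each of these clones 4 of the 20 had an unadjusted p under 0.05. Ccnd1 and Cdk4 thus fell in the 2 clones where all 20 of these genes fell, and Ccnd3 and Cdkn2c rose there and also in 2646R, where 12 of the 20 rose.

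**Figure D4:**
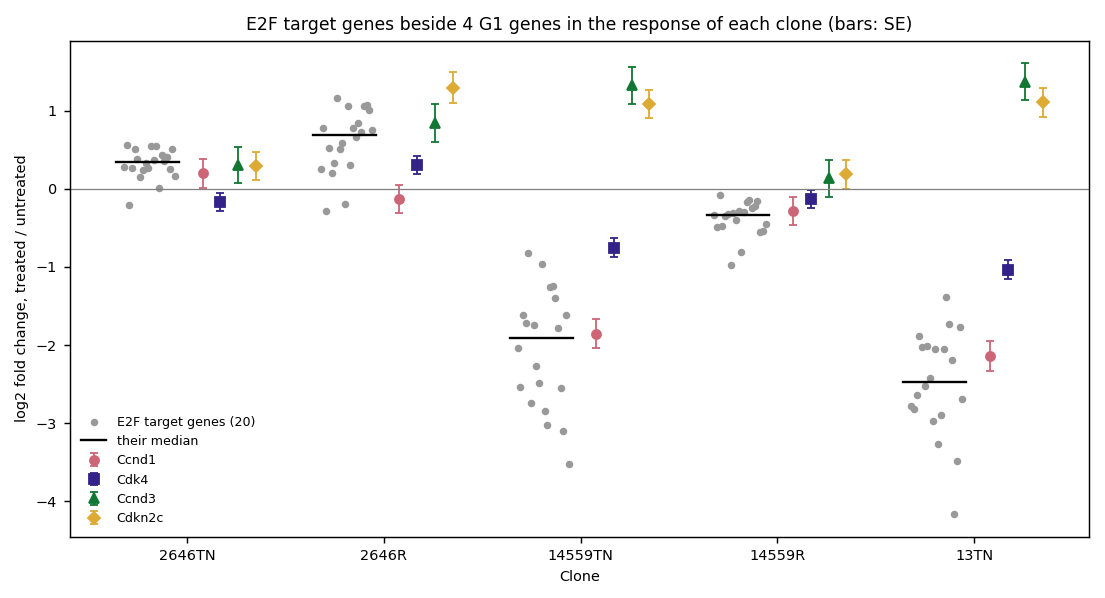
Log2 fold change of treated over untreated tumours in each clone for 20 E2F target genes (grey points, median as a line) and for Ccnd1, Cdk4, Ccnd3 and Cdkn2c (coloured, bars for SE). Ccnd3 and Cdkn2c lie above 0 in the 2646R column, where the median of the list is 0.69, and in the 14559TN and 13TN columns, where it is -1.91 and -2.47.

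Of the 17 partners at the G1/S boundary 11 fell and 1 rose in 14559TN (median -0.95; 16.0% of all genes fell) and 12 fell and 0 rose in 13TN (median -0.81; 17.4%). In 14559TN cyclin E2 (Ccne2, -4.27 ± 0.48), E2f2 (-4.19 ± 0.73), cyclin A2 (Ccna2, -3.53 ± 0.34) and E2f7 (-3.01 ± 0.36) had the largest changes. In 13TN these were Ccna2 (-4.38 ± 0.34), E2f8 (-4.10 ± 0.37), E2f7 (-3.60 ± 0.34) and E2f2 (-3.43 ± 0.63). The single riser was Rbl2, which encodes the pocket protein p130 (0.57 ± 0.19 in 14559TN). In 2646R, where 9.70% of all genes rose, 2 of 17 rose, a share near that of all genes, Ccne2 (1.18 ± 0.29) and Cdc25a (0.82 ± 0.20), and 1 fell, E2f5 (-0.57 ± 0.19). In 2646TN, where 3.94% of all genes were called, 1 of 17 rose, Cdc25a (0.74 ± 0.21). In 14559R, where 0.196% of all genes were called, edgeR called 0, with 2 at an unadjusted p under 0.05.

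Among the other CDK inhibitors, Cdkn1a, which encodes p21, fell in 4 of the 5 clones. It fell in 2646TN (-1.30 ± 0.33, edgeR adjusted p = 0.0287), 2646R (-2.18 ± 0.32, 4.41e-05), 14559TN (-2.25 ± 0.33, 2.16e-05) and 13TN (-3.07 ± 0.34, 3.85e-07), and was not called in 14559R (-0.16, 0.912). Cdkn2d, which encodes p19 of the INK4 family, fell in 13TN (-0.95 ± 0.22, adjusted p = 9.66e-04). Cdkn2a was at 0.907 to 9.66 CPM with no called response, and the counts do not show whether these reads lie outside the deleted part of the gene. Cdkn2b had 4 counts over all libraries. Genes of cyclin D and p27 turnover and kinase activation gave few calls. In either direction 4 of 10 were called in 14559TN (28.4% of all genes), 3 of 10 in 13TN (31.0%) and 1 of 10 in 2646R (19.9%). Of all genes, 16.0% fell in 14559TN, 17.4% fell in 13TN and 9.70% rose in 2646R. Of 10 tested, 3 fell in 14559TN, led by Cks1b (-1.23 ± 0.18), which helps to target p27 for destruction, and 1 rose, Cdk7 (0.51 ± 0.20). In 13TN 3 fell, Cks1b (-1.49 ± 0.18), Skp2 (-0.77 ± 0.23), the ubiquitin ligase subunit for p27, and Cdc37 (-0.48 ± 0.12), and 0 rose. In 2646R 1 rose, Skp2 (1.09 ± 0.22).

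Other features of the libraries moved with these groups. Malat1 went from 1.21 to 1.33% of counts to 1.76 to 2.40% with treatment in 14559TN, and from 1.22 to 1.32% to 2.71 to 3.50% in 13TN. Ribosomal protein genes held 2.32 to 2.66% and 1.61 to 1.71% in 14559TN, and 2.36 to 2.63% and 1.73 to 1.74% in 13TN. The 6 fibroblast markers summed to 2366 to 2894 CPM untreated and 4022 to 4992 CPM treated in 13TN, and to 5326 to 5962 CPM and 12861 to 14429 CPM in 2646R, with none at 0. Macrophage markers in 2646R summed to 25.1 to 54.1 CPM untreated and 94.4 to 112 CPM treated, and pericyte and smooth muscle markers to 450.1 to 471 and 857 to 1139 CPM. Erythroid markers in 14559TN summed to 61.2 to 114 CPM untreated and 25.9 to 48.6 CPM treated. The part of these shifts in the values of the 9 genes was not tested.

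Across the 10 group means of log2 CPM, Ccnd3 and Cdkn2c ran together (Pearson r = 0.96) and Ccnd1 ran with Cdk4 (r = 0.84) and against Ccnd3 (r = -0.86). These values describe 10 points that share libraries and scaling between the genes, and carry no test. Among 10436 genes with a mean of at least 5 CPM, the 3 most like Ccnd1 were Ddx39 (r = 0.98), Kif20a (0.98) and Gins1 (0.98). Those most like Cdk4 were Nde1 (0.99), Mmgt1 (0.98) and Tceal8 (0.98). The closest to Cdkn2c were Sh3bp5 (0.99), Gm43609 (0.98) and Abhd14b (0.98), and to Ccnd3 Eng (0.98), Ptpn13 (0.98) and Lrp4 (0.97). Ccnd2 (best r = 0.94, Srrm1), Cdkn1b (0.93, Ppp1r12a), Rb1 (0.91, Gak) and Cdk6 (0.90, Pip4k2a) had looser neighbours.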

How the data were processed

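The authors deposited 1 file of read counts per library, made by featureCounts 1.6.2 by gene and strand, per the file headers. Alignment used STAR 2.6.0c and the build GRCm38, per the submitters' processing notes. Symbols came from GENCODE vM21, in which all 9 genes had the same span as in the files. One edgeR 4.0.16 quasi-likelihood fit (R 4.3.3, robust, filterByExpr, TMM) held the 10 groups, with 20 residual degrees of freedom, and 14 contrasts and a joint test of the responses were taken from it, adjusted by Benjamini-Hochberg over 13286 genes. No pairing was used. Each tumour has a code with a number of its own and a letter L or R that the labels do not explain, so whether tumours shared a mouse is not known. p-values treat tumours as independent and cover only their spread within a group. CPM uses TMM-scaled library sizes. Standard errors were derived as |log2 fold change| / √F. The fit was tested on simulated data. Alternatives were median-of-ratios scaling, no filter beyond 1 count, DESeq2 1.42.0, only the groups compared, and each library left out.

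The members and lists were chosen with earlier results of these data known. All 9 genes were named in every comparison. From each of the 4 pathway lists, up to 4 called genes with the largest change could be named, and 3 most similar genes per member by Pearson's r of group means. Promoters were from RefSeq (GRCm38.p6), where 5 of the 9 genes matched by symbol (Ccnd3, Cdk4, Cdk6, Cdkn1b and Cdkn2c).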

Additional observations from a re-analysis of the deposited data

Results flagged for a closer look

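The responses differed between the R and the TN clone of a pair, by a test of the difference itself, for 7 gene and pair combinations. Between 2646R and 2646TN the log2 difference of responses, R minus TN, was -0.86 for Cdk6 and 1.00 for Cdkn2c. Between 14559R and 14559TN it was 1.57 for Ccnd1, -1.70 for Ccnd2, -1.19 for Ccnd3, 0.63 for Cdk4 and -0.90 for Cdkn2c. Cdkn2c thus had a difference of opposite sign in the 2 pairs. Over all 5 clones at once, the responses differed with an edgeR adjusted p of 7.89e-09 for Ccnd1, 7.23e-07 for Cdk4, 0.00196 for Cdkn2c, 0.00244 for Cdkn1b, 0.00380 for Cdk6, 0.00809 for Ccnd2 and 0.00954 for Ccnd3. The 7 calls of this joint test over 5 clones held in all alternative fits run for it. Of the calls on the R and TN pairs, those for Cdk6, Ccnd1 and Ccnd2 also held in all alternative fits. Those for Ccnd3, Cdk4 and, in both pairs, Cdkn2c were lost in some. Groups of 3 tumours were too small for a test of single outlying tumours.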

How the results depend on the processing

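Of 49 calls on the 8 tested genes, 35 held under every alternative and 14 were lost under at least 1, and no called value changed sign. The number of these genes called moved by over 1.5 times in few settings. In the 2646TN response it was 2 without the filter and with DESeq2, and 1 to 2 when leaving out a library. In the 14559R response it was 1 without the filter and with DESeq2. For 2646TN against 14559TN it was 3 when just these groups were fitted and 0 to 1 when leaving out a library. For 2646TN against 13TN it was 1 with median-of-ratios scaling and when just these groups were fitted, and 1 to 2 when leaving out a library. Leaving out a library also gave 1 to 3 in the 2646R response, 1 to 4 for untreated 14559R against 14559TN, 1 to 3 for the response difference between 2646R and 2646TN and 2 to 5 for that between 14559R and 14559TN. Over all genes, the 14559R response had 26 calls, 3 with only the groups compared, 112 with DESeq2 and 319 without the filter, and 4 (without untreated replicate 1) to 84 (without treated replicate 3) when leaving out a 14559R library. The 2646TN response had 523, with 965 without the filter and, leaving out a library, 240 (untreated replicate 1), 285 (untreated replicate 2) and 329 (treated replicate 1) at the low end. No paired analysis was possible because the labels give the groups no shared replicate numbers. Depth limits Rb1, with at most 136 counts in a library, and Cdkn1c, with 23 in all.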
